A study of Mus musculus with 12 samples.

Results

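Dnajc5, Cplx1, Pfn2, Wipf2, Phactr1, Basp1 and Zdhhc9 are 7 genes of vesicle fusion, actin and membrane biology that have been reported as targets of the microRNA miR-7 in pancreatic islets. They were found by their gene symbols, and all 7 matched 1 gene identifier each among the 37991 genes of the count table. All 7 also passed the filter on low counts, which left 15961 tested genes. The rule that names them uses no measured value, although earlier results of these data were known when they were chosen. Bulk RNA-seq had been made from islets of male C57BL/6 mice in 4 groups of 3 libraries, namely wild-type littermate controls (Wt) and Tg7 mice at 2 weeks (2w) and at 12 weeks (12w) of age. Tg7 mice overexpress miR-7 in β-cells. They were bred from Tg7 males and C57BL/6J females, and were normoglycaemic at 2w and hyperglycaemic at 12w. Each library held the RNA of islets pooled from several animals, so the spread between libraries is that between pools, and the sources used here do not give the promoter that drives the transgene. All cells of the islet contribute to such a library, and fewer cells of a type cannot be told apart from less RNA per cell.

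A microRNA guides the silencing complex to messenger RNAs that pair with its seed, the bases near its 5′ end, usually in the 3′ untranslated region (3′ UTR), and lowers their translation and their level. miR-7 is abundant in the endocrine cells of the islet. β-cells release insulin when granules docked at the plasma membrane fuse with it through SNARE proteins, a step that calcium triggers through synaptotagmins. Dnajc5 (cysteine string protein) is a chaperone of the SNARE protein SNAP25 on secretory vesicles, and Cplx1 (complexin 1) binds the assembled SNARE complex and controls its final fusion. Below the membrane a cortex of actin filaments restrains granules, and Pfn2 (profilin 2, which supplies actin monomers), Wipf2 (a partner of WASP proteins, which start branched filaments) and Phactr1 (which binds actin monomers and protein phosphatase 1) act on it. Basp1 is a lipid-anchored protein of the inner membrane that collects phosphoinositides and is best known from growing axons. Zdhhc9 is an enzyme that attaches palmitate to proteins, and Dnajc5 and SNAP25 are palmitoylated proteins.

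The sequences below show which bases of the members pair with miR-7. The mature strands of miR-7a and miR-7b are printed first, 5′ to 3′, as RefSeq gives them, with bases 2 to 8, the seed, in capitals.
mmu-miR-7a-5p: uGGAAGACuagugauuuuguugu
mmu-miR-7b-5p: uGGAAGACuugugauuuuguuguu
Both strands carry the same seed, so a match in a 3′ UTR cannot tell them apart, and the sequence sought in the messenger RNA was GTCTTCC. A match to bases 2 to 8 followed by an A was called an 8mer, one to bases 2 to 8 a 7mer-m8, one to bases 2 to 7 followed by an A a 7mer-A1, and one to bases 2 to 7 alone a 6mer.

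Every member held at least 1 match of 7 bases or more in its longest annotated 3′ UTR (NCBIM37, the mm9 build that the count table uses). Among the 14395 tested protein-coding genes this share was 23.9%, and 3.72% held an 8mer, as did Dnajc5 and Wipf2 among the members. The members were chosen as reported targets of miR-7, so this contrast is not independent of their choice. The median length of the 3′ UTR of these genes was 1064 nucleotides, and that of every member but Basp1 was longer. The best match of each member is shown as a window of 28 bases on the coding strand with the paired bases, and the following A where present, in capitals. For Wipf2 the other 8mer is added, because it is the only member with more than 1, and for Phactr1 the 7mer-A1, because this gene had the largest change among the members that passed the test.
Dnajc5, 8mer, chr2:181284585-181284612, plus strand: ggaactgggccccGTCTTCCAggcacca
Wipf2, first 8mer, chr11:98762226-98762253, plus strand: acatcgtttctcaGTCTTCCAaggtgta
Wipf2, other 8mer, chr11:98764878-98764905, plus strand: ttcttctctgattGTCTTCCAtcttact
Cplx1, 7mer-m8, chr5:108948633-108948660, minus strand: gaccattcgctctGTCTTCCtgtctgtg
Pfn2, 7mer-m8, chr3:57646643-57646670, minus strand: cttggctcatctaGTCTTCCttttgtag
Phactr1, 7mer-m8, chr13:43232362-43232389, plus strand: ggctgtaaatatgGTCTTCCcaaaaggc
Phactr1, 7mer-A1, chr13:43233315-43233342, plus strand: ataaataaactggcTCTTCCAaaatcct
Basp1, 7mer-A1, chr15:25293173-25293200, minus strand: tgcagcgccagtttTCTTCCAtctgtgt
Zdhhc9, 7mer-A1, chrX:45525391-45525418, minus strand: atctaagcccctgcTCTTCCAgcacttc
All of these windows lie in the 3′ UTR part of an exon. A match describes the letters only and does not show that miR-7 acts there.

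The members differed widely in how many matches they carried. The 7 genes held 27 matches in all, of which 3 were 8mers, 11 were 7mer-m8, 6 were 7mer-A1 and 7 were 6mers. Wipf2 had 10 matches along a 3′ UTR of 5355 nucleotides (nt), 7 of them of 7 bases or more, and no other tested protein-coding gene reached 7. Dnajc5 had 4 matches of 7 bases or more in 5757 nt. Cplx1 also had 4, all 7mer-m8, within a much shorter 3′ UTR of 1575 nt, and its first pair lay 28 nt apart. Only 55 tested genes (0.382%) held 4 or more, these 3 members included. Phactr1 had 2 such matches in 3337 nt, 1818 and 2771 nt after the stop codon. Pfn2 (1322 nt), Basp1 (944 nt) and Zdhhc9 (1556 nt) had 1 each, and the single match of Basp1 lay near the end of its 3′ UTR, 798 nt after the stop codon.

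**Figure D1:**
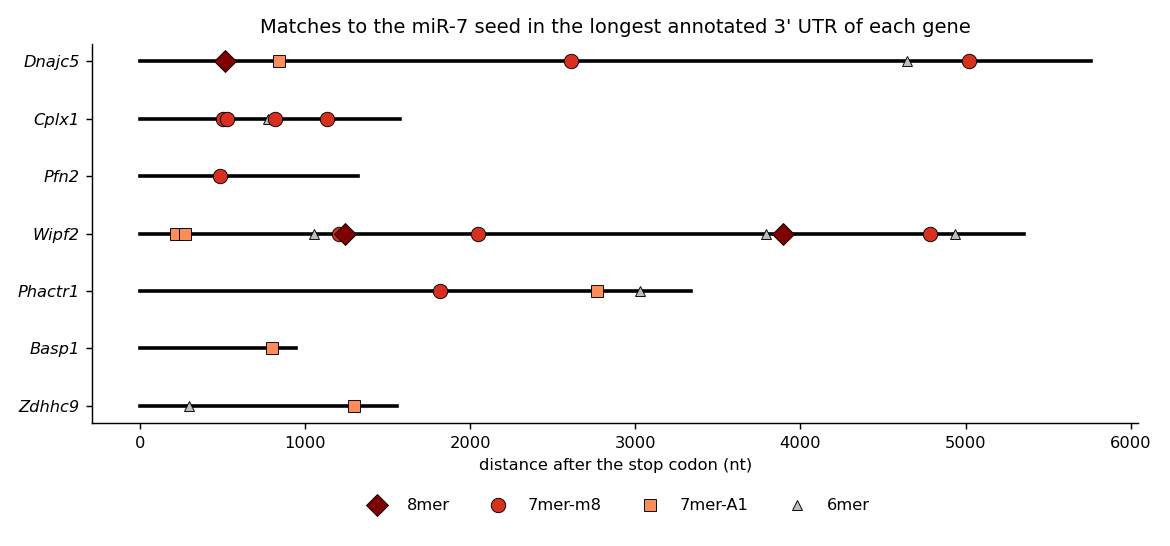
Matches to the miR-7 seed along the longest annotated 3′ UTR of each of the 7 genes, with the distance after the stop codon in nt on the x axis and 1 line per gene drawn to the length of its 3′ UTR. Symbols mark the kind of match; Wipf2 carries 10 matches and Dnajc5 and Cplx1 carry 5 each, whereas Pfn2 and Basp1 carry 1.

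The libraries held 11610697 to 17515758 counts on genes. β-cell marker genes, among them Ins1, Ins2, Mafa and Ucn3, were lower in Tg7 islets, with 10 of 12 called lower at each age, not necessarily the same 10 (median log2 fold change −2.37 at 2w and −2.68 at 12w). Levels are given as CPM, the counts of a gene scaled to a common library size, and the summed level of these markers was 111992 to 181896 CPM in Wt and 27853 to 52958 CPM in Tg7 libraries at 2w, and 201346 to 483983 against 100760 to 106105 CPM at 12w. Markers of α-cells (summed level 25581 to 82047 CPM over the 12 libraries) and of δ-cells (1653 to 4852 CPM) were abundant, as islets have them, and acinar markers stayed between 0.199 and 12.9 CPM, with Amy2b at 0. Because the β-cell markers take a large and unequal share of the counts, the members' values depend on the scaling. CPM here are scaled with edgeR's TMM factors, which put the median log2 fold change of all tested genes at 0.03 (2w) and −0.01 (12w). Scaling by library size alone moved that median by 0.17 at 2w and by 0.44 at 12w. The calls at 12w were then 5198 higher and 360 lower genes, against 1989 and 1783 with TMM factors. The fold changes below are therefore relative to the bulk of genes. Mature miR-7 was not measured by these libraries, and the rows of the miR-7 hairpins held 0 to 30 counts in each library.

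The first question was how the levels of these genes differed between Tg7 and Wt islets in young mice. At 2w, 3 of the 7 members passed edgeR's quasi-likelihood test at an adjusted p below 0.05, while 10.6% of all tested genes did. Phactr1 and Dnajc5 were lower and Basp1 was higher in Tg7 islets, beside 4.55% of all genes called lower and 6.07% called higher. At 12w, in hyperglycaemic mice, 4 of the 7 were called against 23.6% of all genes, with Wipf2 added to the genes that were lower (11.2% of all genes were called lower and 12.5% higher). Of the members, 2 were called lower at both ages, as were 3.14% of all tested genes, and 1 was called higher at both ages, as were 3.65%. The groups did not overlap for 4 members at each age, beside 35.9% of all tested genes at 2w and 37.1% at 12w. The median log2 fold change of the 7 genes was −0.06 at 2w and −0.03 at 12w, close to that of all genes, since members lay on both sides. Their median absolute log2 fold change was 0.42 and 0.83, beside 0.29 and 0.35 over all tested genes.

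**Figure D2:**
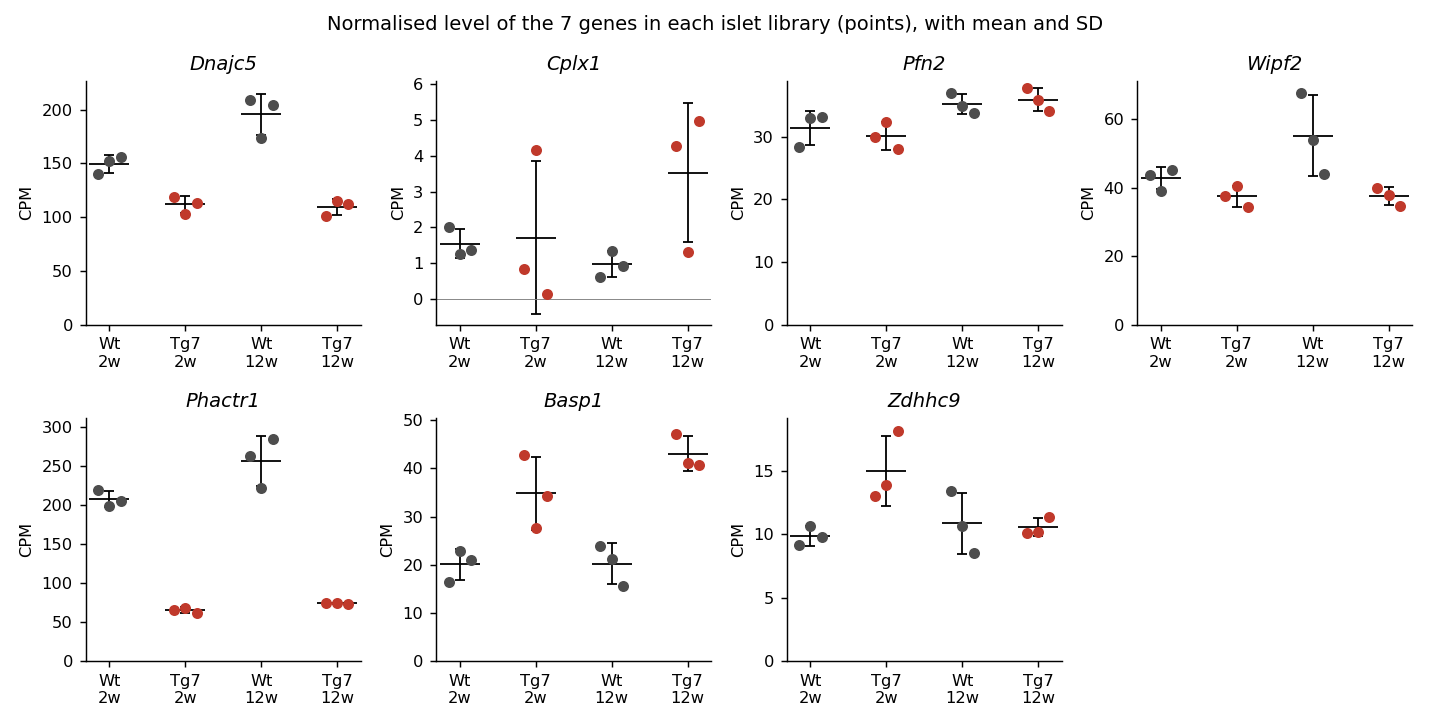
Level of each of the 7 genes in CPM (y axis, 1 panel per gene, own scale) in the 3 libraries of each group, Wt in grey and Tg7 in red, with the mean and SD as black bars. Phactr1 lies between 62.1 and 75.1 CPM in all 6 Tg7 libraries and between 199 and 284 CPM in all 6 Wt libraries, whereas Pfn2 overlaps between Wt and Tg7 at both ages.

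Dnajc5, the vesicle chaperone, was lower in Tg7 islets at both ages. At 2w it measured 140, 152 and 156 CPM in the Wt libraries and 119, 103 and 114 CPM in the Tg7 libraries. At 12w the Wt libraries held 209, 174 and 204 CPM and the Tg7 libraries 101, 115 and 112 CPM. Every Tg7 library therefore lay below every Wt library of its age. The level fell by 25.1% at 2w (log2 fold change −0.42 ± 0.12 SE, adjusted p = 0.0353) and fell by 43.9% at 12w (−0.83 ± 0.12, adjusted p = 1.88e-04, n = 3 libraries per group in edgeR's quasi-likelihood test). The call at 12w held without any single library, and ended with library size alone (−0.38, adjusted p = 0.0658). That at 2w ended in 3 of the 7 other settings, with adjusted p up to 0.327, and it was lost when any Wt library of 2w, or Tg7 replicate 2 or 3 of either age, was left out, with log2 fold changes between −0.46 and −0.36 and adjusted p up to 0.138.

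Between 2w and 12w, Dnajc5 rose in Wt islets by 0.39 ± 0.12 on the log2 scale (adjusted p = 0.0345, edgeR's quasi-likelihood test), the only member called with age in Wt, where 15.8% of all tested genes were called. In Tg7 islets its change with age was −0.03 ± 0.12. The Tg7 effect at 12w minus that at 2w was −0.42 ± 0.16, which passed 0.05 only before correction (adjusted p = 0.260 in the edgeR fit). The rise in Wt islets was lost in 9 of the 12 fits without a single library, namely all but those without Tg7 2w replicate 2 and Wt 12w replicates 2 and 4, with an adjusted p of up to 0.118, and it was −0.01 with library size alone.

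Cplx1, the complexin of synapses, had few counts, which varied widely between the libraries of a group. At 2w the Wt libraries held 34, 17 and 26 counts (2.02, 1.25 and 1.38 CPM), and the Tg7 libraries 16, 64 and 3 counts (0.854, 4.16 and 0.149 CPM). At 12w there were 5, 17 and 14 counts in Wt (0.630, 1.35 and 0.933 CPM) and 76, 24 and 87 counts in Tg7 (4.29, 1.33 and 4.98 CPM). The groups overlapped at both ages, at 12w because 1 Tg7 library lay within the Wt range. The log2 fold change was 0.11 at 2w, with a 95% confidence interval from −1.58 to 1.81, so that neither a fall nor a rise of 2-fold could be told from no change. At 12w it was 1.82 (0.06 to 3.59), which passed 0.05 only before correction (adjusted p = 0.128 in edgeR's quasi-likelihood test). The value at 2w rested on Tg7 2w replicate 2 and became −1.64 without it, and without Wt 2w replicate 2 it was −0.01. At 12w it passed the threshold in 3 fits, without Tg7 2w replicate 2 (1.83, adjusted p = 0.0484), without Tg7 2w replicate 3 (1.84, adjusted p = 0.0473) and with library size alone (2.24, adjusted p = 0.0423).

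Pfn2, the neuronal profilin, did not differ measurably between Tg7 and Wt islets. At 2w it measured 28.3, 32.9 and 33.1 CPM in Wt and 29.9, 32.4 and 27.97 CPM in Tg7 libraries, and at 12w 36.9, 34.8 and 33.7 CPM in Wt and 37.8, 35.8 and 34.1 CPM in Tg7. The ranges overlapped at both ages. The log2 fold change was −0.06 at 2w (95% confidence interval −0.32 to 0.19) and 0.03 at 12w (−0.23 to 0.29), so that a fall as large as that of Dnajc5 at 12w lay outside both intervals. With library size alone the value was 0.10 at 2w and 0.48 at 12w (adjusted p = 0.0194), the latter near the shift of all genes under that scaling. In Tg7 islets Pfn2 was 0.26 ± 0.12 higher at 12w than at 2w (adjusted p = 0.184, edgeR's quasi-likelihood test).

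Wipf2, the member with the most matches, was lower in Tg7 islets at 12w. The Wt libraries held 43.8, 39.1 and 45.2 CPM at 2w and 67.6, 53.8 and 44.1 CPM at 12w. The Tg7 libraries held 37.6, 40.5 and 34.3 CPM at 2w and 39.9, 38.0 and 34.7 CPM at 12w. The groups overlapped at 2w and were apart at 12w, where the 3 Wt libraries were also far from each other. The log2 fold change was −0.19 ± 0.15 at 2w (adjusted p = 0.450) and −0.55 ± 0.15 at 12w (adjusted p = 0.0164, edgeR's quasi-likelihood test), a level that fell by 31.8%. At 12w the call was lost without Tg7 12w replicate 2 (−0.56, adjusted p = 0.0530) or replicate 3 (−0.50, adjusted p = 0.0755), with upper-quartile factors (−0.47, adjusted p = 0.0520) and in a fit of the 12w libraries alone (−0.58, adjusted p = 0.0570), and with library size alone the value was −0.09 (adjusted p = 0.652). The difference between the ages, −0.36 ± 0.21, had an adjusted p of 0.466 in the edgeR fit, so an effect at 12w only was not shown. In Wt islets Wipf2 was 0.36 ± 0.15 higher at 12w than at 2w (adjusted p = 0.114 in edgeR's quasi-likelihood test). That comparison passed the threshold without Wt 12w replicate 4 (0.50, adjusted p = 0.0134).

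Phactr1 was lower in every Tg7 library than in every Wt library of the same age. At 2w the Wt libraries measured 218, 199 and 205 CPM and the Tg7 libraries 66.0, 68.7 and 62.1 CPM. At 12w they measured 263, 221 and 284 CPM and 74.0, 75.1 and 73.8 CPM. The Tg7 libraries were close to each other at both ages, with SDs of 3.30 and 0.694 CPM. The level fell by 68.4% at 2w (log2 fold change −1.66 ± 0.12, adjusted p = 2.62e-06) and fell by 71.0% at 12w (−1.78 ± 0.12, adjusted p = 2.73e-07, edgeR's quasi-likelihood test). Only 0.852% of all tested genes had a lower log2 fold change at 2w and 1.17% at 12w. Both calls held in all 7 other settings and without any single library, with values from −1.70 to −1.63 at 2w and −1.88 to −1.70 at 12w over the libraries left out at that age. The effects at the 2 ages differed by −0.12 ± 0.16 (95% confidence interval −0.47 to 0.22, adjusted p = 0.794). In Wt islets the gene was 0.30 ± 0.11 higher at 12w than at 2w (adjusted p = 0.0853), which passed the threshold without Wt 12w replicate 2 (0.39, adjusted p = 0.0240) and with DESeq2 (0.31, adjusted p = 0.0320).

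Basp1, the membrane cortex protein, moved the other way. It measured 16.4, 22.8 and 21.1 CPM in Wt and 42.7, 27.6 and 34.3 CPM in Tg7 libraries at 2w. At 12w it measured 23.9, 21.2 and 15.5 CPM in Wt and 47.1, 41.2 and 40.7 CPM in Tg7. All Tg7 libraries lay above all Wt libraries at both ages. The level was 1.74-fold that of Wt at 2w (log2 fold change 0.80 ± 0.19, adjusted p = 0.0182) and 2.14-fold at 12w (1.10 ± 0.20, adjusted p = 0.00122, edgeR's quasi-likelihood test). The call at 12w held in all 7 other settings and without any single library. At 2w it was lost in the absence of Wt 2w replicate 1 (0.67, adjusted p = 0.0896), Wt 2w replicate 3 (0.83, adjusted p = 0.0628) or Tg7 2w replicate 1 (0.63, adjusted p = 0.0671).

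Markers of some other cell types were also higher in Tg7 islets, not all of them at both ages. Of 8 stellate and fibroblast markers, 5 were called higher at 2w and 7 at 12w, and their summed level was 321 to 466 CPM in Wt against 506 to 659 CPM in Tg7 libraries at 2w and 87.0 to 148 against 379 to 399 CPM at 12w. All 6 endothelial markers were higher at 12w (341 to 462 against 725 to 780 CPM), while their summed level at 2w was 788 to 1010 against 888 to 944 CPM. Of 8 Schwann and neuron markers, 1 was lower at 2w (47.3 to 66.3 against 35.3 to 60.7 CPM) and 4 were higher at 12w (44.4 to 58.0 against 72.4 to 81.2 CPM). Every gene of these 3 lists had counts. Markers of α-cells, δ-cells, acinar cells and lymphocytes had 0 calls at either age. Of 7 tested macrophage markers, 1 was called higher at 2w and 1 lower at 12w. One list each for pancreatic polypeptide, ductal and erythroid cells had 1 gene called higher, at 2w for the first and at 12w for the others. The part of these cell types in the levels of Basp1, and in those of Cplx1 at 12w, was not tested.

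Zdhhc9, the palmitoyltransferase, was apart from Wt at 2w and not at 12w. The Wt libraries measured 9.14, 10.7 and 9.79 CPM and the Tg7 libraries 13.02, 13.8 and 18.1 CPM at 2w. At 12w the Wt libraries measured 13.4, 10.6 and 8.53 CPM and the Tg7 libraries, at 10.1, 10.2 and 11.4 CPM, lay within that range. The log2 fold change at 2w was 0.61 ± 0.19 with an adjusted p of 0.0613 in edgeR's quasi-likelihood test, which missed the threshold. It passed with DESeq2 (0.61, adjusted p = 0.0249), with library size alone (0.77, adjusted p = 0.0206) and without Wt 12w replicate 1 (0.60, adjusted p = 0.0392) or replicate 4 (0.60, adjusted p = 0.0273). At 12w it was −0.03 (95% confidence interval −0.45 to 0.40). The difference between the ages was −0.63 ± 0.28, which passed 0.05 only before correction (adjusted p = 0.312 in the edgeR fit). In Tg7 islets the level at 12w was 0.51 lower than at 2w on the log2 scale, a change of −0.51 ± 0.19 with an adjusted p of 0.104. Without Wt 12w replicate 4 that change had an adjusted p of 0.0496.

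**Figure D3:**
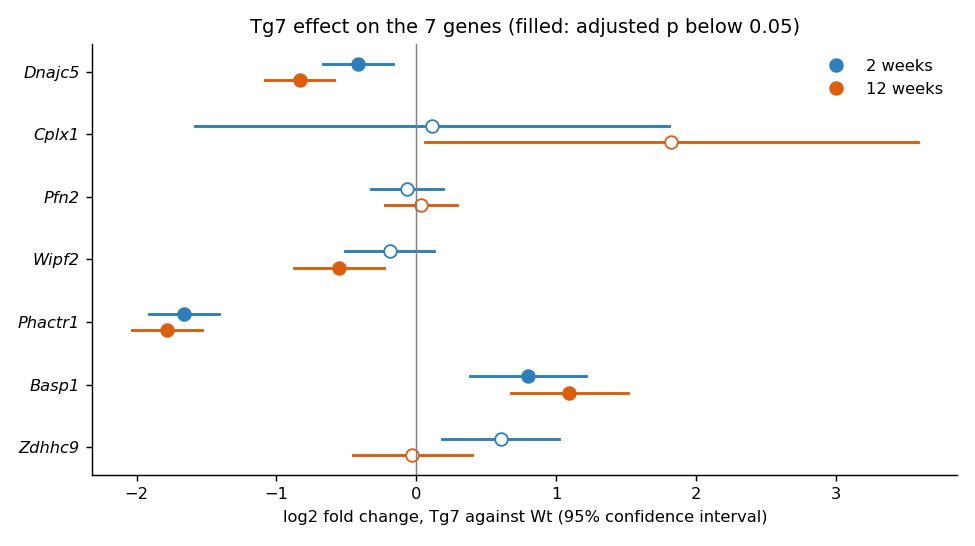
Log2 fold change of Tg7 against Wt islets (x axis) for each gene at 2 weeks (blue) and 12 weeks (orange), with the 95% confidence interval as a line and a filled point where the adjusted p in edgeR's quasi-likelihood test was below 0.05. Phactr1 lies at −1.66 and −1.78, Dnajc5 at −0.42 and −0.83 and Basp1 at 0.80 and 1.10, whereas the intervals of Cplx1 span more than those of any other member.

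The difference between the Tg7 effects at 12w and 2w passed the threshold for 0 of the 7 members in edgeR's quasi-likelihood test, where 1.18% of all tested genes were called. At an unadjusted p below 0.05 there were 2, Dnajc5 and Zdhhc9, and 0 were called with DESeq2. With age in Tg7 islets, 0 members were called in the edgeR fit beside 13% of all tested genes, 1 (Zdhhc9) had an unadjusted p below 0.05, and 0 were called with DESeq2. In Wt islets 3 members (Dnajc5, Phactr1 and Wipf2) had an unadjusted p below 0.05, all 3 higher at 12w. These 3 genes were also those called lower in Tg7 islets at 12w, but the same Wt libraries enter both comparisons. Only Dnajc5 was called with age in Wt after correction. With library size alone the changes with age in Wt were −0.015 (Dnajc5), −0.090 (Phactr1) and −0.054 (Wipf2).

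Levels per length of annotated exon placed the members in the islet transcriptome. In Wt islets Phactr1 and Dnajc5 were the most abundant, with 21.6 ± 1.05 and 21.5 ± 1.21 CPM per kb at 2w (SD, n = 3), which did not differ beyond their spread. They lay above 85.1% and 85.0% of the tested genes with a known length. Basp1 (10.9 ± 1.77 CPM per kb) and Pfn2 (10.4 ± 0.901 CPM per kb) followed at 2w and were also within their spread of each other. Wipf2 came next with 5.46 ± 0.406, then Zdhhc9 with 1.47 ± 0.115 and Cplx1 with 0.709 ± 0.187 CPM per kb. At 12w the order in Wt islets was Dnajc5 (28.1 ± 2.75), Phactr1 (26.6 ± 3.30), Pfn2 (11.7 ± 0.538), Basp1 (10.95 ± 2.32), Wipf2 (7.05 ± 1.51), Zdhhc9 (1.61 ± 0.359) and Cplx1 (0.444 ± 0.165 CPM per kb), with the same close neighbours.

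In Tg7 islets Basp1 headed the order, with 18.9 ± 4.09 CPM per kb at 2w and 23.3 ± 1.94 CPM per kb at 12w. At 2w this was within its spread of Dnajc5, at 16.1 ± 1.17 CPM per kb, and at 12w Dnajc5 measured 15.8 ± 1.056 CPM per kb. Phactr1 ranked above 57.1% of genes at 2w and 60.7% at 12w, with 6.82 ± 0.343 and 7.73 ± 0.0722 CPM per kb. It then lay below Pfn2 (9.97 ± 0.739 and 11.9 ± 0.620) and above Wipf2 (4.79 ± 0.400 and 4.798 ± 0.332 CPM per kb). Zdhhc9 and Cplx1 were again lowest, and at 12w they stood at 1.57 ± 0.107 and 1.61 ± 0.886 CPM per kb, within the spread of Cplx1.

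Over the 12 libraries, the levels of Dnajc5 and Phactr1 on the log2 scale had a Pearson correlation of 0.93, and those of Phactr1 and Basp1 one of −0.88. These values describe 4 groups that differ in genotype and age and share the same libraries, and they carry no test. By the same measure the protein-coding genes most like Phactr1 were Gng12 (0.985), Amd1 (0.985) and Gdap2 (0.981), and those most like Dnajc5 were Glg1 (0.973), Herc4 (0.960) and Osbp (0.960). For Wipf2 they were E2f4 (0.946), Rnft1 (0.944) and Terf2 (0.941), for Basp1 Eif2b2 (0.968), Gstp1 (0.963) and Fmnl1 (0.961), and for Zdhhc9 Slc5a11 (0.937), Sfrp1 (0.928) and Vill (0.926). The genes most like Pfn2 were Dnajc1 (0.936), Zc3h12b (0.900) and Maneal (0.899), and those most like Cplx1, with its few counts, Sncg (0.948), Rtp1 (0.928) and Faim2 (0.913).

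Among the 7 genes the order by number of matches was not the order by change at 12w, and a relation between matches and change was not tested. The 3 members with 4 or more matches of 7 bases or more had log2 fold changes of −0.83 (Dnajc5), −0.55 (Wipf2) and 1.82 (Cplx1, not called) at 12w. Phactr1, with 2 such matches, lay at −1.78. Among the 3 members with 1, Basp1 lay at 1.10, Pfn2 at 0.03 and Zdhhc9 at −0.03. The 2 members with an 8mer, Dnajc5 and Wipf2, were both lower at 12w, whereas the best match of Phactr1 was a 7mer-m8, like those of Pfn2 and Cplx1.

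Across all tested protein-coding genes the median log2 fold change at 12w was −0.01 for 10960 genes without a match of 7 bases or more, −0.05 for 2653 genes with 1, −0.19 for 612 genes with 2, −0.24 for 115 genes with 3 and −0.09 for 55 genes with 4 or more. The corresponding medians at 2w were 0.04, −0.01, −0.09, −0.14 and −0.12. The share of genes called lower at 12w was 10.6%, 14.5%, 20.8%, 25.2% and 25.5% in the same order. The share called higher at 12w was 13.3%, 12.9%, 9.31%, 8.70% and 12.7%. The median length of the 3′ UTR also rose over these classes, from 834 to 4259 nt, and its part in these shares was not tested. Phactr1 and Dnajc5 thus lay below the lower quartile of their own class at 12w (−0.48 with 2 matches, −0.51 with 4 or more), as did Wipf2. Cplx1, which was not called, lay at 1.82, above the upper quartile of genes with 4 or more (0.37). Basp1 lay above the upper quartile of genes with 1 match (0.37).

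**Figure D4:**
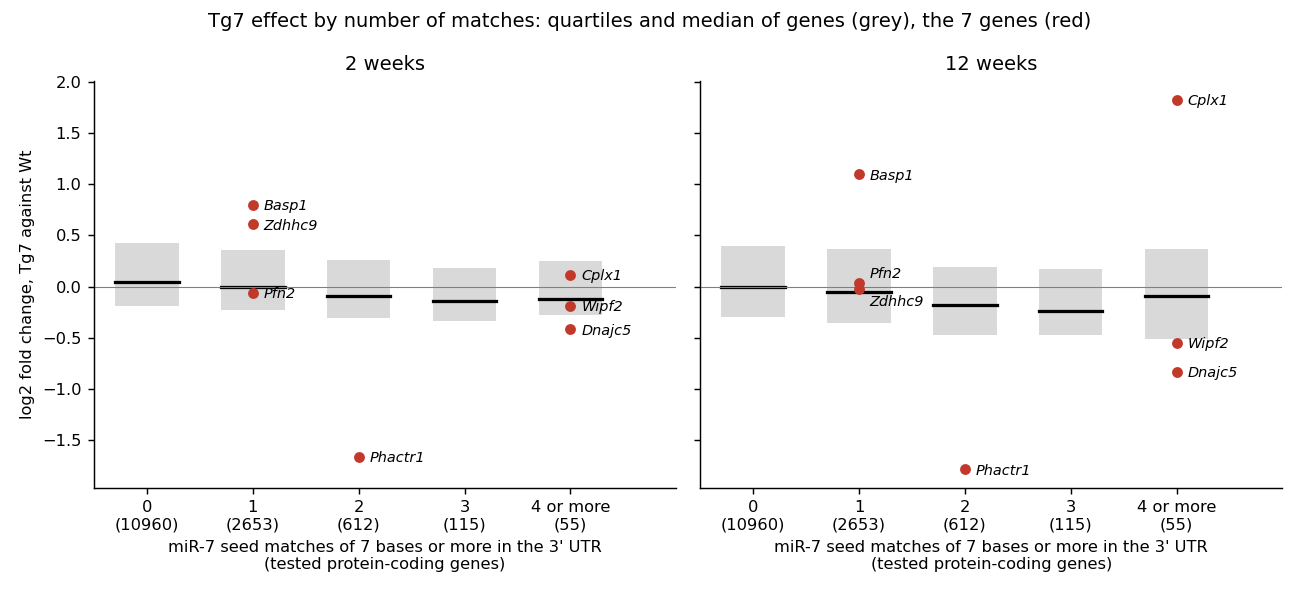
Log2 fold change of Tg7 against Wt islets (y axis) by the number of miR-7 seed matches of 7 bases or more in the 3′ UTR (x axis, number of tested protein-coding genes in brackets), at 2 weeks and at 12 weeks. Grey boxes span the quartiles, black lines mark the medians, which stay between −0.24 and 0.04, and red points are the 7 genes, of which Phactr1 lies lowest at −1.66 and −1.78.

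The other genes of vesicle fusion gave the setting for Dnajc5 and Cplx1. Of 57 listed genes 53 were tested, and in edgeR's quasi-likelihood test 2 were higher and 8 lower at 2w (18.9% called, beside 10.6% of all genes), and 8 higher and 12 lower at 12w (37.7% called, beside 23.6% of all genes). Their median log2 fold change was −0.16 at 2w and −0.11 at 12w, beside 0.03 and −0.01 over all genes. Among those that were lower at both ages were granule tethers of the Rab27 pathway, Sytl4 (granuphilin; −2.42 ± 0.25 and −3.26 ± 0.26) and Mlph (melanophilin; −2.91 ± 0.45 and −5.56 ± 0.50), and the active zone protein Rims3 (−1.44 ± 0.19 and −1.77 ± 0.19). Mlph fell from 17.2 ± 5.43 CPM in Wt to 0.354 ± 0.257 CPM in Tg7 islets at 12w. Though not a member, Mlph itself carried 1 8mer, 2 7mer-m8, 2 7mer-A1 and 21 6mers in a 3′ UTR of 2533 nt. Sytl4 held 1 match and Rims3 4, all 6mers. Higher at both ages were Rab3c, a small GTPase of vesicles (1.17 ± 0.17 and 1.26 ± 0.17), and Syt11, a synaptotagmin that does not bind calcium (0.65 ± 0.13 and 0.83 ± 0.13). These calls held in every other setting and without any single library. Of the other genes named from the lists, Rab3c, Cplx2 and Phactr4 each held 1 7mer-m8, and Syt11 and Marcksl1 1 7mer-A1. Wipf1 held 1 8mer and Zdhhc3 2 7mer-A1.

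Syt5, a calcium-binding synaptotagmin of dense-core vesicles, had 92.1 ± 1.21 CPM in Wt and 88.2 ± 6.73 CPM in Tg7 islets at 2w (SD, n = 3), and 77.1 ± 16.5 against 153 ± 4.29 CPM at 12w. Its log2 fold change was −0.06 at 2w and 0.98 at 12w, and the difference of 1.05 ± 0.19 passed the test (adjusted p = 0.0175, edgeR's quasi-likelihood test). Cplx2, the other complexin that passed the filter, measured 546 ± 9.57 CPM in Wt and 624 ± 39.7 CPM in Tg7 islets at 2w, and 511 ± 93.2 against 702 ± 61.0 CPM at 12w. Its log2 fold change was 0.19 ± 0.14 at 2w and 0.46 ± 0.14 at 12w (adjusted p = 0.0278). The call on Cplx2 did not hold when Wt 12w replicate 1 (0.33, adjusted p = 0.0929) or 2, or Tg7 12w replicate 1 or 2 (0.39, adjusted p = 0.121), was left out, or in a fit of the 12w libraries alone. Cplx3 and Cplx4, with 32 and 11 counts over all libraries, and the Dnajc5 relatives Dnajc5b and Dnajc5g, with 0, did not pass the filter on low counts.

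Genes of actin and of the membrane cortex made up a list of 45, and 44 passed the filter. There were 3 calls at 2w, all higher (6.82%, beside 10.6% of all genes), and at 12w 7 were higher and 6 lower (29.5%, beside 23.6%). None of the paralogs of the members on this list was called lower at 2w or 12w in this fit. Phactr3, which like Phactr1 binds actin and protein phosphatase 1, was higher at 12w (1.16 ± 0.26, adjusted p = 0.00555) and was 0.43 ± 0.26 at 2w. Phactr2 (0.34 and 0.57) and Phactr4 (0.16 and −0.07) were not called at 2w or 12w. For the relatives of Wipf2, Wipf3 was higher at both ages (1.21 ± 0.33, adjusted p = 0.0335, and 0.996 ± 0.33, adjusted p = 0.0407) with group means of 1.63 to 4.74 CPM, and Wipf1 was not called (0.34 and 0.43). Profilin 1 (Pfn1), the profilin of most tissues, measured −0.03 ± 0.16 and −0.13 ± 0.16, and the low Pfn4 −0.29 ± 0.57 and −0.35 ± 0.56. Pfn3, with 1 count in all libraries, was not tested. Of the proteins related to Basp1 in function, Gap43 (0.29 and 0.85), Marcks (0.07 and −0.01) and Marcksl1 (0.47 and 0.38) were not called at 2w or 12w. With library size alone Gap43, Marcks, Marcksl1, Phactr2 and Wipf1 were also called higher at 12w, with log2 fold changes of 1.30, 0.46, 0.84, 0.99 and 0.88, beside the shift of 0.44 of all genes. The Wipf3 call at 2w rested on each of the 3 Wt libraries of 2w, on Tg7 replicates 2 and 3 of 2w and on Tg7 replicate 2 of 12w, being lost when any of them was left out (adjusted p up to 0.150). At 12w it rested on Wt replicates 1 and 2 of 2w, Wt replicates 1 and 4 of 12w and Tg7 replicates 2 and 3 of 12w (up to 0.166), and it ended with no filter on low counts (adjusted p = 0.0680) and with the 12w libraries alone (0.0748). Phactr2 at 12w passed without Wt 12w replicate 4 (1.02, adjusted p = 0.0190) and Marcksl1 at 2w without that library (0.46, adjusted p = 0.0472) and with library size alone (0.64, adjusted p = 0.0467).

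Among regulators of actin filaments, the kinases Pak1 (0.73 ± 0.20 and 1.07 ± 0.20) and Limk2 (0.56 ± 0.14 and 0.75 ± 0.14), which restrain the severing protein cofilin, were higher at both ages. Destrin (Dstn), which severs filaments like cofilin, was lower at 12w (−0.94 ± 0.14, adjusted p = 3.94e-04; −0.42 ± 0.14, adjusted p = 0.0744 at 2w). The formins Diap1 (−0.62 ± 0.14, adjusted p = 0.00644) and Diap3 (−2.13 ± 0.46, adjusted p = 0.00419, with 6.46 ± 2.94 CPM in Wt and 1.49 ± 0.679 CPM in Tg7 islets) were also lower at 12w in edgeR's quasi-likelihood test, and were −0.31 ± 0.14 and 0.01 ± 0.41 at 2w. At 2w the call on Limk2 was lost when Wt replicate 1 or 2 or Tg7 replicate 2 of that age was left out (adjusted p up to 0.0854). That on Pak1 was lost when Wt or Tg7 replicate 1 or 3 of 2w, or any Tg7 library of 12w, was left out (up to 0.133) and in a fit of the 2w libraries alone (0.0590), and Dstn passed at 2w without Tg7 2w replicate 1 (−0.56, adjusted p = 0.0286) or Wt 12w replicate 4 (−0.42, adjusted p = 0.0398) and with DESeq2 (−0.41, adjusted p = 0.0275). With library size alone Diap1 at 12w was −0.19 (adjusted p = 0.464).

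Palmitoylation genes gave the setting for Zdhhc9. Of 32 listed genes 29 were tested, with 2 called at 2w, both lower (6.9%, beside 10.6% of all genes), and 2 higher and 6 lower at 12w (27.6%, near the 23.6% of all genes). Their median log2 fold change was −0.19 at 2w and −0.21 at 12w, beside 0.03 and −0.01 over all genes. The enzymes lower at both ages were Zdhhc22 (−1.38 ± 0.32 and −2.04 ± 0.28), with 19.6 ± 3.42 CPM in Wt and 4.76 ± 0.730 CPM in Tg7 islets at 12w, and Zdhhc3 (−0.47 ± 0.11 and −0.55 ± 0.11), a Golgi enzyme. Zdhhc2 was lower at 12w (−0.61 ± 0.19, adjusted p = 0.0298), and Zdhhc1 (0.52 ± 0.18, adjusted p = 0.0463) and Zdhhc8 (0.48 ± 0.15, adjusted p = 0.0314) were higher. Golga7, whose protein is the partner that Zdhhc9 needs for its activity, was −0.22 ± 0.10 at 2w and −0.21 ± 0.10 at 12w (adjusted p = 0.174 and 0.162) and the groups were apart at both ages.

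Several of the palmitoylation calls rested on single libraries or on the setting. With library size alone Zdhhc3 (−0.30 at 2w, −0.11 at 12w) and Zdhhc2 (−0.18 at 12w) were not called, beside the shift of 0.17 and 0.44 of all genes. In fits of each age alone Zdhhc22 at 2w (adjusted p = 0.0561) and Zdhhc1 (0.147) and Zdhhc8 (0.0857) at 12w were not called. At 2w Zdhhc22 needed Wt replicate 1 and Tg7 replicate 3 of that age (adjusted p up to 0.0680 when either was left out), and Zdhhc3 needed Wt replicates 1 and 2 and Tg7 replicates 2 and 3 (up to 0.0659), whereas Zdhhc1 passed without Wt 12w replicate 4 (0.32, adjusted p = 0.0469). At 12w Zdhhc2 was lost without Wt 12w replicate 4 or any Tg7 12w replicate (up to 0.115) and Zdhhc8 without Wt 12w replicate 1 or any Tg7 12w replicate (up to 0.118). The call on Zdhhc1 at 12w was lost in 10 of the 12 fits without a single library, all but those without Tg7 2w replicate 1 and Wt 12w replicate 2 (up to 0.130).

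**Figure D5:**
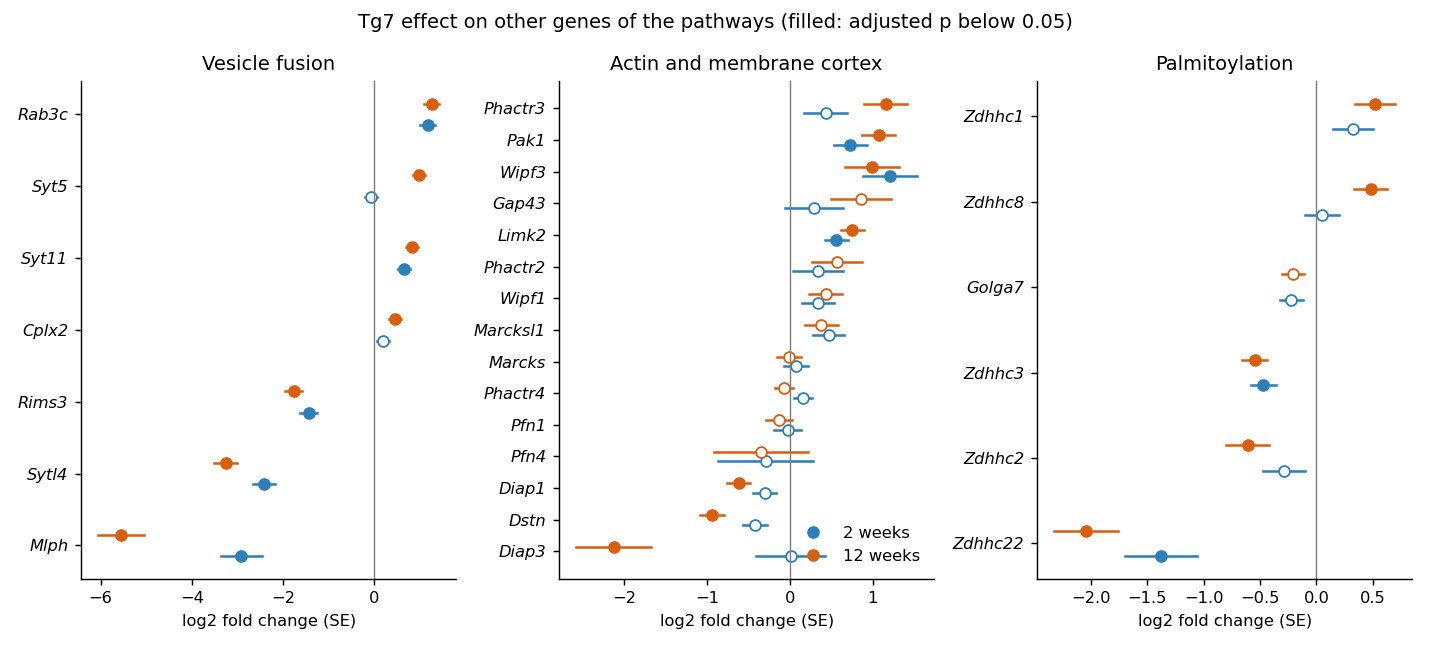
Log2 fold change of Tg7 against Wt islets (x axis, with SE as a line) at 2 weeks (blue) and 12 weeks (orange) for the tested relatives of the members and the pathway genes with the highest and lowest changes among those called, filled where the adjusted p in edgeR's quasi-likelihood test was below 0.05. Mlph lies lowest at −2.91 and −5.56 and Rab3c highest at 12 weeks at 1.26.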

How the data were processed

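The deposited table held raw read counts per gene of 12 islet libraries. The authors trimmed reads with Trimmomatic, aligned them to mm9 with TopHat2 2.0.11 and counted them per gene with featureCounts. The submitters' processing notes also name bcl2fastq 2.20.0. The sources used here do not give the strand setting, so antisense reads may be included, although no member shares exonic bases with another annotated gene. Libraries were grouped by the labels. Counts were tested in R 4.3.3 with edgeR 4.0.16 (TMM factors, filterByExpr with a minimum count of 10 and total of 15, quasi-likelihood test with 4 group means in 1 model, Benjamini-Hochberg adjustment over 15961 genes, threshold 0.05). Adjusted p-values in the text come from this fit, except where another setting or a library left out is named. Those of this fit rest on the spread between pools of animals, with 3 libraries per group and the spread estimated over the 4 groups together. The script was tested on simulated data. CPM use TMM factors, and correlations use log2 CPM with a prior count of 2. Other settings were upper-quartile factors, library size alone, no filter, 50 counts in 3 libraries, DESeq2 1.42.0, replicate number as a block, each age alone, and each library left out. Seed matches were read from NCBIM37 with its gene models, and the 2 miRNA sequences from RefSeq (GRCm38.p6 table, matched by name).

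The 7 genes and the gene lists were chosen with earlier results of these data known. All 7 members are named. From the lists, the text names the paralogs of the members and, for each list and age, the 3 called genes that rose most and the 3 that fell most, where groups did not overlap. Of the genes this rule names, 1 is not reported here. The 3 genes most like each member were those with the highest correlation over 12 libraries.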

Additional observations from a re-analysis of the deposited data

Results flagged for a closer look

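Syt5 was set apart because its Tg7 effect differed between the ages. The log2 fold change of Tg7 against Wt islets was 1.05 higher at 12w (0.98) than at 2w (−0.06), and this difference had an adjusted p of 0.0175 in edgeR's quasi-likelihood test, with all 3 Tg7 libraries above all 3 Wt libraries at 12w and overlapping groups at 2w.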

How the results depend on the processing

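At 12w Phactr1 and Basp1 passed in every other setting and without any library, Dnajc5 in all but library size alone (−0.38), and Wipf2 in 4 of 7 other settings. At 2w Phactr1 and Basp1 passed in all 7, Dnajc5 in 4 and Zdhhc9 in 3. Library size alone turned the sign of Pfn2 at 2w (0.10), of Zdhhc9 at 12w (0.44), of the difference between ages for Phactr1 (0.15) and of the change with age in Wt islets for Dnajc5 (−0.015), Wipf2 (−0.054) and Phactr1 (−0.090). Among relatives and pathway genes it turned Pfn1 (0.14 at 2w, 0.34 at 12w), Syt5 at 2w (0.10), and at 12w Golga7 (0.24), Marcks (0.46), Pfn4 (0.071) and Phactr4 (0.37). Upper-quartile factors turned Zdhhc9 at 12w (0.052), Pfn1 at 2w (0.029), Marcks (0.074) and Phactr4 (0.022) at 12w. Without a filter Diap3 at 2w was −0.0051 and Marcks at 12w 0.0031, and with the stricter filter Marcks was 0.012. Of these values, Marcks at 12w with library size alone was called (adjusted p = 0.0196).

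The labels do not say whether libraries of the same replicate number belong together. The deviations of same-numbered libraries had correlations of −0.02, −0.17 and −0.03 at 2w and −0.09 and −0.01 at 12w. No shared deviation was seen, but these values cannot exclude a pairing. With the replicate block, Cplx1 at 2w was −0.17, Diap3 at 2w −0.0077 and Phactr4 at 12w 0.0023. The block also called Zdhhc9 at 2w (0.59, adjusted p = 0.0362), Wipf2 with age in Wt (0.47, 0.0282), Dstn (0.0283) and Zdhhc1 (0.0420) at 2w and Phactr2 at 12w (0.0401), and did not call Wipf3 (0.0660), Zdhhc1 (0.0864) and Zdhhc2 (0.146) at 12w. It changed no other call on a named gene. With the block 17 vesicle fusion genes, 6 actin and 7 palmitoylation genes were called at 2w and 5 palmitoylation genes at 12w, and 2 members with age in Wt. Wt 12w replicate 4 has no partner at its number. The block therefore gave it a term of its own, which fitted it exactly and took it out of the comparisons. The change of sign of Cplx1 and Diap3 at 2w was seen under the block and not without this library (0.11 and 0.0039). The calls on named genes that changed under the block cannot be told apart from those of leaving this library out. Without it, Zdhhc9 at 2w was 0.60 (adjusted p = 0.0273) and Wipf2 with age in Wt 0.50 (adjusted p = 0.0134, edgeR's quasi-likelihood test). Vesicle fusion, actin and palmitoylation genes called at 2w were then 19, 6 and 7.

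Members called with age in Wt were 0 with library size alone and without a filter and 2 with DESeq2. Actin genes called at 2w were 6 with library size alone and 5 with DESeq2, and at 12w 21 with library size alone and 8 with each age alone. Palmitoylation genes called were 5 at 2w and 3 at 12w with each age alone, and 5 at 12w with upper-quartile factors. The cause was not tested.

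With single libraries left out, the members called ranged from 1 to 4 at 2w, from 0 to 2 with age in Wt and from 0 to 1 with age in Tg7. Calls ranged from 8 to 19 for vesicle fusion at 2w, 0 to 6 and 8 to 13 for actin at 2w and 12w, and 0 to 7 and 2 to 8 for palmitoylation. Log2 fold changes that changed sign ranged from −1.64 to 0.66 (Cplx1, 2w), −0.17 to 0.12 (Zdhhc9, 12w), −0.43 to 0.27 (Diap3, 2w), −0.22 to 0.49 (Gap43, 2w), −0.013 to 0.14 and −0.095 to 0.14 (Marcks, 2w and 12w), −0.15 to 0.022 and −0.30 to 0.0054 (Pfn1, 2w and 12w), −0.53 to 0.040 (Pfn4, 2w), −0.13 to 0.0060 (Phactr4, 12w), −0.10 to 0.0022 (Syt5, 2w) and −0.064 to 0.14 (Zdhhc8, 2w). Cplx1 had 3 to 87 counts in a library, and the part of depth in its spread was not tested.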
